A study of Rattus norvegicus with 12 samples.

Results

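The genes described here encode the subunits of the mitochondrial respiratory chain and of ATP synthase, with a few proteins that regulate, assemble or resemble them. They were taken by symbol: names that start with Nduf, Sdha to Sdhd, Uqcr, Cox4 to Cox8 or Atp5, with Cyc1 and Cyb5a. Of 4736 rat genes that the array measured through a probe set with 1 gene symbol, 57 met this rule. They comprised 24 subunits of complex I, 1 of complex II, 4 of complex III, 12 of complex IV, 9 of ATP synthase and 7 other proteins. A gene with several probe sets was represented by the one with the highest mean over the 12 arrays.

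RNA was from whole lungs of male Sprague-Dawley rats, whose age is not given in the sources used here. In T/SS (trauma with sham shock) rats had vessels cannulated and a laparotomy, with no bleeding. In T/HS (trauma with hemorrhagic shock) they had the same surgery, were bled with heparin and held at a mean arterial pressure of 30 mmHg for 90 min, and then received their blood back. In the groups T/SS-LDL and T/HS-LDL (lymph duct ligation) the mesenteric lymph vessel was tied and cut before the same sham or shock procedure. Lungs were taken 3 h after the 90 min period in each group. The design text describes lung injury in T/HS and none in the other 3 groups, so T/HS against T/SS spans shock and injury together, T/HS-LDL against T/SS-LDL addresses shock without injury, and T/HS against T/HS-LDL addresses injury among shocked rats. The last pair also differs by the ligation itself, so injury and ligation cannot be told apart in it. All animals had anaesthesia and surgery, so none is an untouched control.

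Each group held 3 arrays, which the labels call biological replicates, but in each group 2 arrays were near-identical. The robust SD of their log2 differences was between 0.00993 and 0.0548 with 0 probe sets more than 2-fold apart, against 0.164 to 0.232 and 40 to 256 probe sets for the other pairs within a group. The near-identical arrays were averaged and counted as 1 sample, which left 2 samples in each group: replicate 1 and the mean of replicates 2 and 3 in T/SS, and the mean of replicates 1 and 3 and replicate 2 in the other groups. Values are given in that order, as RMA intensities on a linear scale. The median intensity of an array was between 651 and 680. Having 2 samples in a group limits the precision. The 2 T/HS samples were the least alike within a group. Of 11 lung epithelium markers 8 were measured, and their summed intensity lay between 174438 and 189357 in all 8 samples. The highest intensity of an array was between 29933 and 32489, and whether a sum of such bright markers could show a change was not tested.

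The respiratory chain passes electrons from NADH and succinate to oxygen through complexes I to IV and pumps protons across the inner mitochondrial membrane, and ATP synthase uses the return of these protons to make ATP. Complex I has a conserved core that carries the redox centres and the pump, surrounded by accessory subunits needed for its assembly and stability. Most subunits are encoded in the nucleus, among them all those described here. In lung, epithelial and endothelial cells, muscle of the vessels and airways, and resident and recruited leukocytes all contribute such transcripts.

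Transcripts of the complex I accessory subunits were lower in T/HS lungs than in lungs of each of the other groups. The median difference was 0.34 on the log2 scale below T/SS and 0.43 below T/HS-LDL. For the catalytic head of ATP synthase the T/HS samples went opposite ways. Its median from the T/SS mean was 0.17 in the averaged T/HS sample and -0.24 in T/HS replicate 2, where the accessory subunits were at -0.24 too. The core subunits and complex IV were at medians of -0.05 and -0.06 against T/SS, but other probe sets of some of these genes were lower. None of these differences passed the test across all probe sets. By limma's moderated test with Benjamini-Hochberg adjustment, 0 of 57 genes had an adjusted p under 0.05 in any comparison, as had 0 of all 8740 probe sets (0.0% called), so the values below describe these samples. At an unadjusted p under 0.05, 11 of the 57 genes were lower in T/HS against T/SS and 0 higher, where 5.03% of all genes were lower and 3.63% higher. Between T/HS and T/HS-LDL, 17 were lower and 0 higher, where 4.65% of all genes were lower and 1.96% higher. Both comparisons use the same T/HS samples and are not independent of each other, and T/HS was not tested against T/SS-LDL.

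These counts depended on single samples. Without the averaged T/HS sample, 5 genes were lower against T/SS and 6 against T/HS-LDL, where 7.73% and 4.29% of all genes were. Without T/HS replicate 2 the counts were 13 and 19, where 5.11% and 6.23% of all genes were lower. Without T/SS replicate 1, 4 genes were lower against T/SS, and without the mean of T/SS replicates 2 and 3, 5 were, where 2.24% and 2.83% of all genes were. Against T/HS-LDL, 11 were lower in either case, where 3.06% of all genes were. Without T/HS-LDL replicate 2, 6 were lower against T/HS-LDL, where 3.04% of all genes were. With all 12 arrays taken as separate samples, which counts near-identical arrays as independent, limma's adjusted p was under 0.05 for 11 of the 57 genes in T/HS against T/SS and for 12 in T/HS against T/HS-LDL, where 7.18% and 4.5% of all genes were called.

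In 24 of the 57 genes both T/HS samples lay below all 6 samples of the other groups, and in 0 they lay above them, where 8.02% of all genes lay below and 6.69% above. Of these 24 genes, 14 were among the 20 accessory subunits of complex I and 0 among its 4 core subunits. The others were Sdha of complex II, Cyc1 and Uqcrfs1 of complex III, Ndufa4 and Cox6b1 of complex IV, Atp5pd and Atp5pf of the ATP synthase stalk, and Cyb5a, Cox7a2l and Ndufa4l2. In whole lung, fewer cells that carry a transcript and less of it per cell cannot be told apart.

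**Figure D1:**
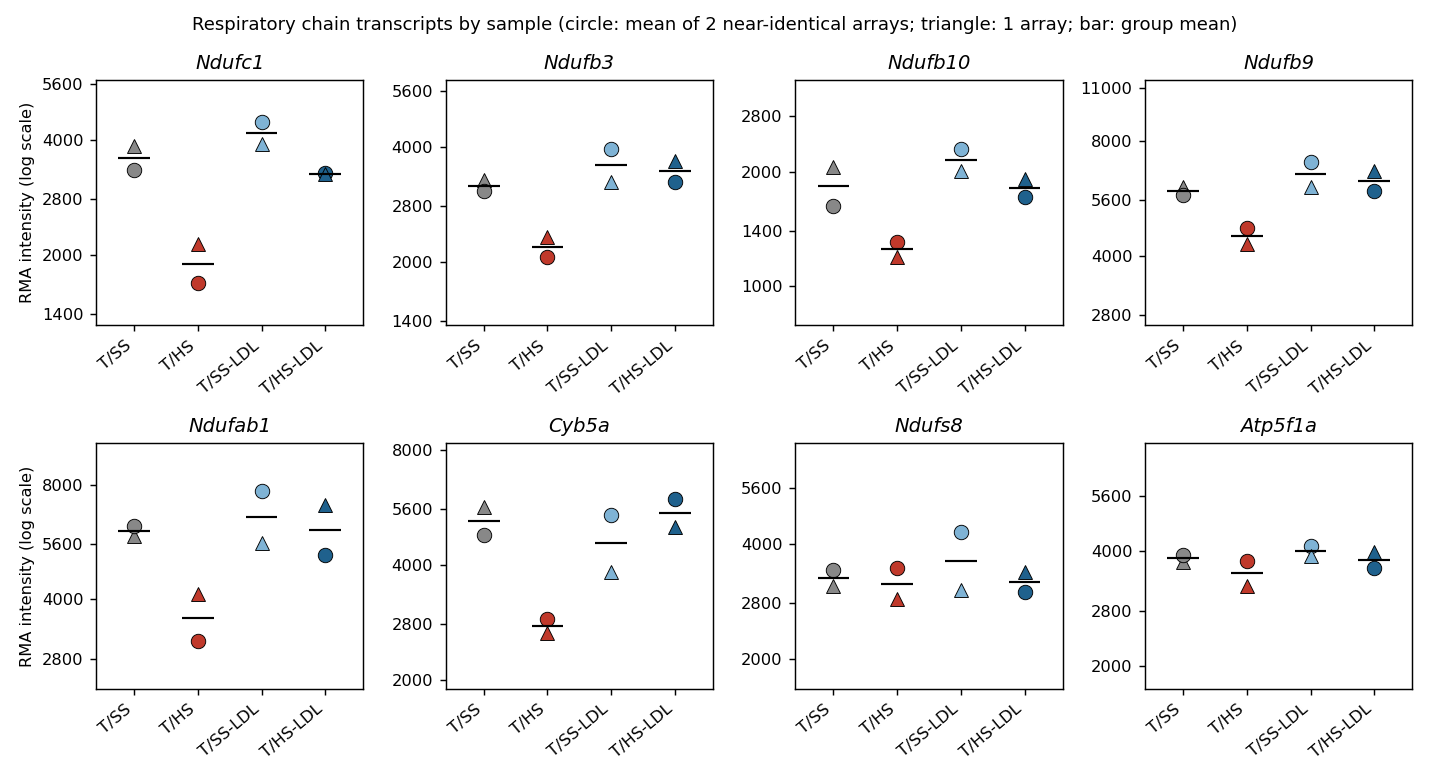
RMA intensity (log axis) of 8 genes in every sample of the 4 groups; circles are means of 2 near-identical arrays, triangles are single arrays and bars are group means of log2 values. The T/HS points of Ndufc1, Ndufb3, Ndufb10, Ndufb9, Ndufab1 and Cyb5a lie below all others, while those of Ndufs8, a core subunit of complex I, overlap those of each other group, and those of Atp5f1a, a subunit of the catalytic head of ATP synthase, overlap T/SS and T/HS-LDL but lie below T/SS-LDL.

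Ndufc1 encodes a small accessory subunit of the membrane arm of complex I and showed the largest difference from T/SS of any complex I gene. Its intensity was 3854 and 3344 in T/SS, 1690 and 2133 in T/HS, 4454 and 3910 in T/SS-LDL, and 3272 and 3258 in T/HS-LDL. The T/HS samples were the lowest and the T/SS-LDL samples the highest, with no overlap between any pair of groups. The T/HS mean was 0.529 times the T/SS mean, a log2 difference of -0.92 ± 0.15 (SE from limma, n = 2 samples per group, adjusted p = 0.373), and 0.582 times the T/HS-LDL mean, a log2 difference of -0.78 ± 0.15 (limma, adjusted p = 0.676). With the duct tied, shock rats were also lower than sham rats, with a log2 difference of -0.35 ± 0.15 (limma, adjusted p = 0.999). A second Ndufc1 probe set gave 2361 and 2187 in T/SS, 1365 and 1598 in T/HS, 2989 and 2679 in T/SS-LDL, and 2065 and 2680 in T/HS-LDL. Its T/HS samples were again the lowest of the 8.

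Ndufb3, Ndufb10 and Ndufb9 encode accessory subunits of the same membrane arm. Ndufb3 gave 3268 and 3061 in T/SS, 2063 and 2317 in T/HS, 3959 and 3235 in T/SS-LDL, and 3242 and 3670 in T/HS-LDL. Its 3 other groups overlapped one another, and only T/HS stood apart. The T/HS mean was 0.691 times that of T/SS, a log2 difference of -0.53 ± 0.14 (limma, adjusted p = 0.416), and 0.634 times that of T/HS-LDL, a log2 difference of -0.66 ± 0.14 (limma, adjusted p = 0.712). Ndufb10 gave 2055 and 1627 in T/SS, 1310 and 1197 in T/HS, 2299 and 2002 in T/SS-LDL, and 1714 and 1915 in T/HS-LDL. The T/HS samples were close to each other and below the rest, while the T/SS samples spanned those of T/HS-LDL. Its log2 difference was -0.55 ± 0.15 against T/SS (limma, adjusted p = 0.416) and -0.53 ± 0.15 against T/HS-LDL (limma, adjusted p = 0.775). Ndufb9 gave 6035 and 5763 in T/SS, 4717 and 4303 in T/HS, 7052 and 6060 in T/SS-LDL, and 5910 and 6667 in T/HS-LDL. T/HS was the low group here too, by -0.39 ± 0.12 against T/SS and -0.48 ± 0.12 against T/HS-LDL on the log2 scale (limma, adjusted p = 0.466 and 0.775).

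Ndufab1 encodes the mitochondrial acyl carrier protein, which is both a subunit of complex I and a carrier in mitochondrial fatty acid synthesis. It gave 5875 and 6214 in T/SS, 3108 and 4139 in T/HS, 7714 and 5613 in T/SS-LDL, and 5233 and 7068 in T/HS-LDL. Only the T/HS samples stood apart; those of the other groups overlapped. The log2 difference was -0.75 ± 0.22 against T/SS (limma, adjusted p = 0.452) and -0.76 ± 0.22 against T/HS-LDL (limma, adjusted p = 0.775), and the other 2 probe sets of the gene differed from T/SS by -0.69 ± 0.18 and -0.50 ± 0.13. Ndufb1, another membrane arm subunit, gave 5506 and 5147 in T/SS, 3029 and 4096 in T/HS, 5848 and 4146 in T/SS-LDL, and 5859 and 5619 in T/HS-LDL. The higher T/HS sample lay just under the lower T/SS-LDL sample, so T/HS and T/SS-LDL nearly met.

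In Ndufa5, Ndufa6, Ndufs4 and Ndufb2 the averaged T/HS sample was much lower than T/HS replicate 2. Ndufa5, a subunit of the arm that reaches into the matrix, gave 1247 and 2509 in T/HS against 2844 and 2622 in T/SS. Ndufa6, which sits beside the acyl carrier protein in the same arm, gave 1792 and 2632 in T/HS against 3209 and 3128 in T/SS. Ndufs4, a subunit whose loss causes Leigh syndrome, gave 1146 and 1708 in T/HS against 2159 and 2041 in T/SS. In these genes replicate 2 was nearer to the sham level than the averaged sample was. Ndufb2 gave 2587 and 3781 in T/HS against 4010 and 4022 in T/SS, and the log2 differences of the 4 genes from T/SS were -0.63 ± 0.29, -0.54 ± 0.20, -0.59 ± 0.25 and -0.36 ± 0.19 in the order named (limma, adjusted p from 0.525 to 0.627).

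Smaller differences completed the accessory subunits that lay apart from all other samples. Ndufc2, the membrane arm partner of Ndufc1, gave 3045 and 2991 in T/HS, 3831 and 3666 in T/SS, 4761 and 3818 in T/SS-LDL and 3413 and 3764 in T/HS-LDL. Its log2 difference from T/SS was -0.31 ± 0.13, and that of T/HS-LDL from T/SS-LDL was -0.25 ± 0.13. Ndufa3, Ndufb5 and Ndufs6 differed from T/SS by -0.22 ± 0.12, -0.20 ± 0.12 and -0.20 ± 0.15, and from T/HS-LDL by -0.29 ± 0.12, -0.33 ± 0.12 and -0.40 ± 0.15. None of these passed limma's adjusted threshold. A second Ndufb5 probe set gave 1742 and 1718 in T/HS, close to the 1722 and 1703 of T/SS.

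On the probe sets that stand for them, the remaining accessory subunits did not follow this order of groups. Ndufb11 and Ndufb6 differed from T/SS by -0.10 ± 0.33 and -0.12 ± 0.23, with SEs larger than the differences, and their samples within a group were far apart: Ndufb11 gave 2968 and 1328 in T/SS-LDL, and Ndufb6 gave 1875 and 3016 in T/HS-LDL. The other Ndufb6 probe set did follow it: its T/HS samples, at 1561 and 1606, lay below the 1914 to 2148 of all 6 others, with log2 differences of -0.30 ± 0.09 from T/SS and -0.29 ± 0.09 from T/HS-LDL (limma, adjusted p = 0.434 and 0.775). Ndufb8 gave 8776 and 6811 in T/HS, on both sides of the 7977 and 8248 of T/SS. Ndufa8, Ndufa9 and Ndufv3 were above T/SS by 0.20 ± 0.14, 0.04 ± 0.13 and 0.01 ± 0.14. Among the 20 accessory subunits, 17 were below T/SS and 17 below T/HS-LDL, where 52.0% and 45.9% of all genes were.

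In 0 of the 4 core subunits measured, which hold iron-sulfur clusters, did both T/HS samples lie below all others. Ndufs8 gave 3100 and 3417 in T/SS, 3452 and 2861 in T/HS, 4289 and 3031 in T/SS-LDL, and 2993 and 3375 in T/HS-LDL. Ndufs7 gave 3358 and 3089 in T/SS, 3208 and 2814 in T/HS, 4348 and 3320 in T/SS-LDL, and 3076 and 3533 in T/HS-LDL. In both, T/HS overlapped T/SS and T/HS-LDL. Of the other 3 probe sets of Ndufs8, 2 differed from T/SS by -0.08 ± 0.11 and 0.00 ± 0.15, and the third was lower with shock in both duct states. It gave 1162 and 1154 in T/SS, 1043 and 869 in T/HS, 1147 and 1243 in T/SS-LDL, and 958 and 883 in T/HS-LDL, a log2 difference of -0.28 ± 0.12 from T/SS and of -0.33 ± 0.08 over both duct states (limma, adjusted p = 0.569 and 0.351). Ndufv2 was higher in both T/HS samples, at 6071 and 5643, than in T/SS, at 5010 and 4604, with a log2 difference of 0.29 ± 0.16 (limma, adjusted p = 0.639). Ndufs1 was dim on every array, between 144 and 188, and a filter on dim probe sets removed it and Cox6c-ps1 and kept the other 55 genes. The median difference of the core from T/SS was -0.05, against -0.34 for the accessory subunits and -0.01 for all genes. The difference between core and accessory subunits was not tested.

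**Figure D2:**
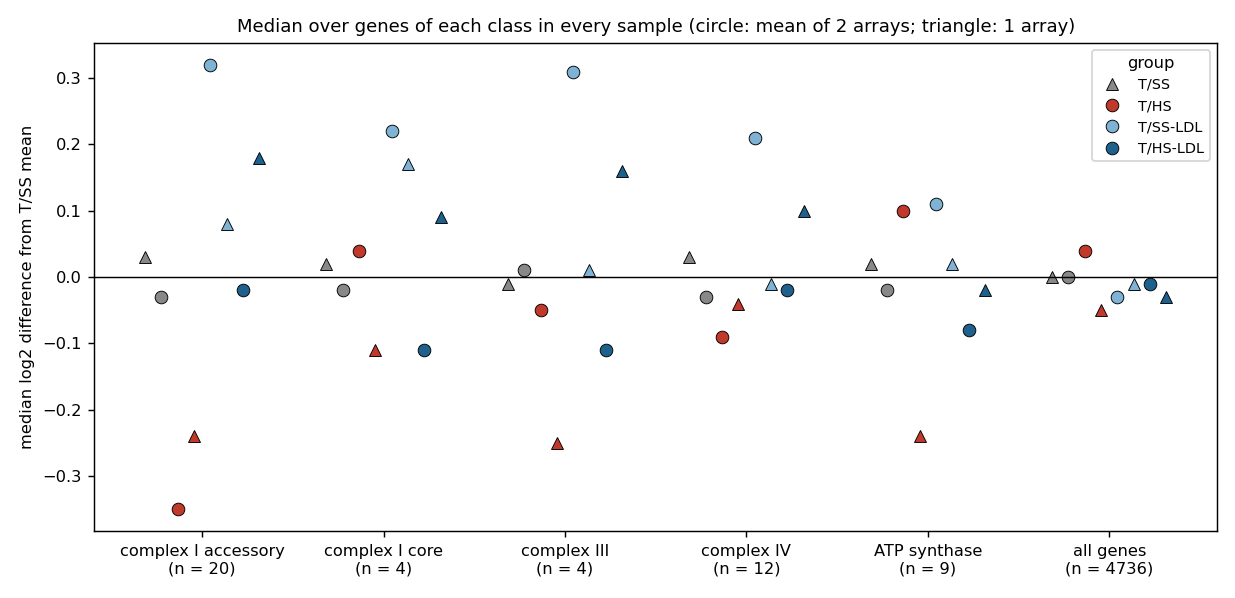
Median over the genes of a class of the log2 difference from the T/SS mean, in every sample; circles are means of 2 near-identical arrays and triangles single arrays. Complex I accessory subunits lie at -0.35 and -0.24 in the T/HS samples and between -0.03 and 0.32 elsewhere, while the median of all 4736 genes stays between -0.05 and 0.04.

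By sample, the accessory subunits lay at a median of -0.35 in the averaged T/HS sample and -0.24 in T/HS replicate 2, relative to the T/SS mean on the log2 scale. They lay at 0.32 and 0.08 in T/SS-LDL and at -0.02 and 0.18 in T/HS-LDL. Both T/HS samples were thus the lowest of the 8. The ATP synthase subunits were at 0.10 and -0.24 in the same T/HS samples, those of its catalytic head at 0.17 and -0.24, and those of complex III at -0.05 and -0.25. These classes were lower in replicate 2 than in the averaged sample, the reverse of the accessory subunits. In replicate 2 they were about as low as the accessory subunits, so the contrast with them rests on the averaged sample.

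Complexes II and III held single genes with a low T/HS level. Sdha, the flavoprotein of succinate dehydrogenase, gave 3138 and 2937 in T/SS, 2666 and 2815 in T/HS, 3606 and 2843 in T/SS-LDL, and 3051 and 3096 in T/HS-LDL. The T/HS samples were the lowest, but by a log2 difference of only -0.15 ± 0.13 from T/SS (limma, adjusted p = 0.774). Cyc1, cytochrome c1, which hands electrons to cytochrome c, gave 3896 and 3563 in T/SS, 2658 and 3115 in T/HS, 4995 and 3853 in T/SS-LDL, and 3412 and 4200 in T/HS-LDL. T/HS was apart from each other group, with a log2 difference of -0.37 ± 0.17 from T/SS and -0.40 ± 0.17 from T/HS-LDL (limma, adjusted p = 0.581 and 0.775). Uqcrfs1, the Rieske iron-sulfur protein, differed from T/SS by -0.23 ± 0.13, whereas Uqcr11, a small subunit, and Uqcrc2, a core protein, differed by -0.09 ± 0.14 and 0.04 ± 0.18 with overlapping groups. A second Uqcr11 probe set gave 6060 and 5166 in T/HS, below the 6274 to 7751 of all 6 other samples, with -0.25 ± 0.13 from T/SS and -0.27 ± 0.13 from T/HS-LDL.

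In complex IV, cytochrome c oxidase, 8 of 12 genes were below T/SS with a median of -0.06. Ndufa4, once counted to complex I and now placed in complex IV, gave 4396 and 3896 in T/SS, 2978 and 3755 in T/HS, 4978 and 5044 in T/SS-LDL, and 4172 and 4310 in T/HS-LDL. Sham and shock did not overlap in either state of the duct, with log2 differences of -0.31 ± 0.13 without ligation and -0.24 ± 0.13 with it (limma, adjusted p = 0.577 and 0.999). Cox6b1, which joins the monomers of the enzyme, gave 10180 and 9496 in T/SS, 7907 and 8172 in T/HS, 11770 and 9079 in T/SS-LDL, and 9603 and 11284 in T/HS-LDL. It was low in T/HS alone, by -0.29 ± 0.15 against T/SS and -0.37 ± 0.15 against T/HS-LDL. Cox7b differed from T/SS by -0.28 ± 0.21 and Cox5b by -0.15 ± 0.16, both with the averaged T/HS sample as the lowest and replicate 2 close to the sham samples.

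Cox4i1, the common form of subunit 4, gave 24872 and 25060 in T/SS, 25850 and 25276 in T/HS, 27602 and 22847 in T/SS-LDL, and 24540 and 27295 in T/HS-LDL. The log2 difference between T/HS and T/SS was 0.03 ± 0.12. Cox4i2, an isoform known for its expression in lung and its part in oxygen sensing, gave 8987 and 10380 in T/SS and between 8435 and 8973 in the other 6 samples. T/SS was highest here, and T/HS-LDL and T/SS-LDL overlapped. Cox6a1 and Cox6c differed from T/SS by -0.05 ± 0.10 and -0.05 ± 0.12. The other 2 probe sets of Cox6a1 were lower in T/HS: one gave 7582 and 8493 there against 9547 to 12061 in all 6 other samples, and a dim one gave 479 and 537 against 547 to 721. They differed from T/SS by -0.29 ± 0.12 and -0.39 ± 0.13 (limma, adjusted p = 0.569 and 0.489). So the low T/HS level of this gene depended on the probe set. Cox5a, through a dim probe set between 240 and 308, differed by 0.06 ± 0.15.

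The muscle isoforms followed another pattern. Cox6a2 gave 2119 and 1625 in T/SS, 2203 and 2206 in T/HS, 2183 and 2359 in T/SS-LDL, and 2250 and 1456 in T/HS-LDL. The 2 low samples, the mean of T/SS replicates 2 and 3 and T/HS-LDL replicate 2, were also the lowest in heart muscle markers, 16 of 19 of which were measured: their summed intensity was 17172 and 13330 there and between 29174 and 36385 in the other 6 samples. The part of heart muscle tissue in the values of Cox6a2 was not tested. Cox8b, the muscle form of subunit 8, gave 1564 and 1355 in T/SS, 1563 and 1245 in T/HS, 1664 and 1592 in T/SS-LDL, and 1435 and 1357 in T/HS-LDL, with no group apart from T/SS but T/SS-LDL.

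Probe sets of Cox8a, the common form of subunit 8, disagreed. The one with the highest mean log2 value gave 25327 and 22870 in T/SS and 26140 and 23971 in T/HS, a log2 difference of 0.06 ± 0.11. A second, which has the higher mean of linear intensities, gave 26995 and 26836 in T/SS and 19407 and 23516 in T/HS, a log2 difference of -0.33 ± 0.12 (limma, adjusted p = 0.518). The other 2 differed by -0.32 ± 0.16 and -0.15 ± 0.12. So the sign of this gene depended on the probe set.

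ATP synthase was divided between its parts in the averaged T/HS sample, where the head was at a median of 0.17 and the stalk at -0.26 from the T/SS mean. In T/HS replicate 2 they were at -0.24 and -0.22. The 5 genes of the catalytic F1 head, Atp5f1a to Atp5f1e, differed from T/SS by -0.13 to 0.04, and in each T/HS overlapped T/SS and T/HS-LDL. Atp5f1b, the subunit with the catalytic sites, gave 13243 and 13766 in T/SS, 15167 and 12068 in T/HS, 14253 and 15959 in T/SS-LDL, and 14072 and 12610 in T/HS-LDL. Its T/HS samples lay on both sides of all T/SS values. Of the peripheral stalk, which holds the head still against the rotor, Atp5pf and Atp5pd were lower in T/HS. Atp5pf gave 4091 and 3993 in T/SS, 3418 and 3325 in T/HS, 4614 and 4019 in T/SS-LDL, and 3987 and 3972 in T/HS-LDL. The T/HS samples were the lowest, and the log2 difference was -0.26 ± 0.10 from T/SS and -0.24 ± 0.10 from T/HS-LDL (limma, adjusted p = 0.537 and 0.775). Atp5pd differed by -0.29 ± 0.13 and -0.33 ± 0.13, and Atp5po, the protein that links stalk and head, by 0.00 ± 0.14 and 0.14 ± 0.14.

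Atp5pb, the b subunit of the stalk, had 1 probe set and gave 4776 and 5569 in T/SS, 3788 and 5657 in T/HS, 7100 and 5499 in T/SS-LDL, and 1121 and 5415 in T/HS-LDL. The low value was that of the mean of 2 near-identical arrays. The log2 difference of -1.34 ± 0.65 between T/HS-LDL and T/SS-LDL rests on that sample and was -0.21 ± 0.28 without it.

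Of the proteins that are not subunits of the complexes, Cyb5a and Cox7a2l were lower in T/HS. Cyb5a encodes cytochrome b5, a heme protein of the endoplasmic reticulum that passes electrons to desaturases and P450 enzymes. It gave 5671 and 4807 in T/SS, 2889 and 2649 in T/HS, 5422 and 3831 in T/SS-LDL, and 5968 and 5031 in T/HS-LDL. The T/HS samples were close together and below all others, and T/HS-LDL overlapped both sham groups. The T/HS mean was 0.53 times that of T/SS, a log2 difference of -0.92 ± 0.19 (limma, adjusted p = 0.373), and 0.505 times that of T/HS-LDL, a log2 difference of -0.99 ± 0.19 (limma, adjusted p = 0.676). The shock difference was 0.27 ± 0.19 with the duct tied, which gave an interaction of -1.18 ± 0.27 (limma, adjusted p = 1.0). A second Cyb5a probe set differed from T/SS by -0.42 ± 0.12, and the third gave 3305 and 2891 in T/SS and 3241 and 2417 in T/HS, which overlap, with -0.14 ± 0.22.

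Cox7a2l, which joins complexes III and IV into supercomplexes, gave 6226 and 6103 in T/SS, 4735 and 4963 in T/HS, 7440 and 6211 in T/SS-LDL, and 6146 and 6813 in T/HS-LDL. It was low in T/HS alone, by -0.35 ± 0.12 against T/SS and -0.42 ± 0.12 against T/HS-LDL (limma, adjusted p = 0.493 and 0.775), and its second probe set differed from T/SS by -0.37. Ndufa4l2, a relative of Ndufa4 induced by hypoxia in other settings, gave 4251 and 3765 in T/SS, 3186 and 3303 in T/HS, 3370 and 4546 in T/SS-LDL, and 3393 and 3709 in T/HS-LDL. Its 5 probe sets differed from T/SS by -0.81 to -0.25, and 4 of them belong to a class that matches gene families. Ndufaf3, an assembly factor of complex I, Sdhaf2, which attaches the flavin to Sdha, and the pseudogene Cox6c-ps1 differed from T/SS by -0.14 ± 0.12, 0.01 ± 0.13 and 0.24 ± 0.15.

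**Figure D3:**
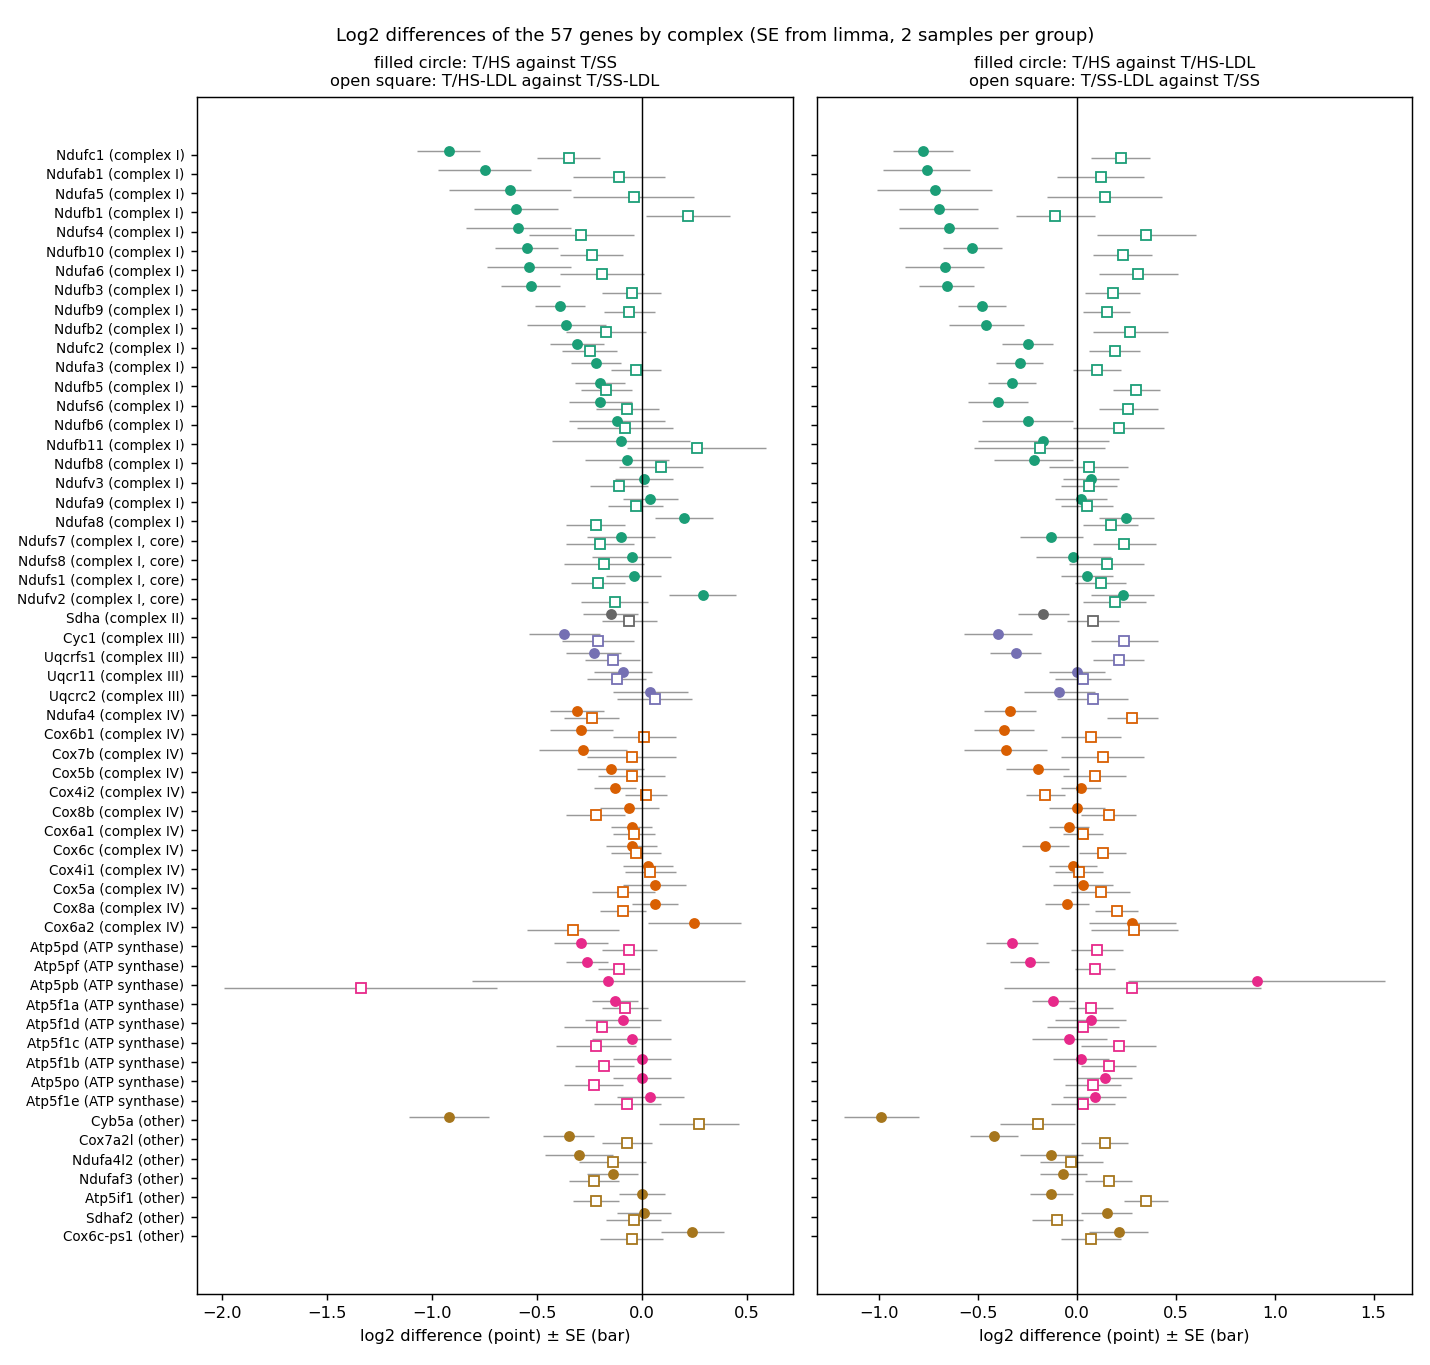
Log2 difference (points) with the SE from limma (bars) of all 57 genes, ordered by complex. Left, T/HS against T/SS (filled) and T/HS-LDL against T/SS-LDL (open); right, T/HS against T/HS-LDL (filled) and T/SS-LDL against T/SS (open). Most filled points of the accessory subunits lie left of 0 in both panels, Ndufc1 at -0.92 and -0.78, and most open points of these genes lie nearer to 0.

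With the duct tied, fewer genes were lower with shock at an unadjusted p under 0.05, but more had a negative difference than with the duct open. At an unadjusted p under 0.05, 1 of 57 genes, Ndufc1, was lower in T/HS-LDL against T/SS-LDL and 0 were higher, where 2.17% of all genes were lower and 1.94% higher. Of the 57 genes, 49 were below 0 with a median of -0.11, where 47.2% of all genes were below 0; with the duct open 44 were, with a median of -0.13, where 52.0% of all genes were. Without the averaged T/HS-LDL sample 33 genes were below 0 with a median of -0.05, and without the averaged T/SS-LDL sample 35 with a median of -0.03. The accessory subunits were at a median of -0.10 with the duct tied and -0.34 with it open, whereas the ATP synthase subunits were at -0.18 and -0.09 and the core subunits at -0.19 and -0.05. Over both duct states, 13 genes were lower with shock at an unadjusted p under 0.05 and 0 higher, where 5.85% and 3.72% of all genes were. The first count was 3 without the averaged T/HS-LDL sample and 3 without T/SS replicate 1, where 3.76% and 3.44% of all genes were lower. It was 5 without the averaged T/SS-LDL sample, where 4.69% were, and 6 without the averaged T/HS or the averaged T/SS sample, where 8.04% and 3.65% were. Of the 57, 50 were below 0, where 48.8% of all genes were. Ndufc1 was at -0.64 ± 0.10, Ndufb10 at -0.40 ± 0.10, Ndufb3 at -0.29 ± 0.10 and Ndufc2 at -0.28 ± 0.09 (limma, adjusted p from 0.297 to 0.447).

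The interaction asks whether the shock difference itself differed with ligation. At an unadjusted p under 0.05, 4 genes had a more negative shock difference with the duct open and 0 a more positive one, where 1.73% and 1.06% of all genes did. They were Cyb5a, Ndufb1 at -0.82 ± 0.28, Ndufc1 at -0.57 ± 0.21 and Ndufb3 at -0.48 ± 0.19 (limma, adjusted p = 1.0 for each). The interaction was below 0 in 35 of the 57, where 52.7% of all genes were. The median interaction was -0.25 for the accessory subunits and -0.05 for all 57 genes. The count of 4 genes depended on single samples, as the counts above did.

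Ligation without shock went the other way in most genes. Of the 57, 6 had a lower mean in T/SS-LDL against T/SS, where 54.7% of all genes were, and the median was 0.13. Atp5if1, the inhibitor that stops ATP synthase from running in reverse, gave 3251 and 3363 in T/SS, 3254 and 3352 in T/HS, 4593 and 3850 in T/SS-LDL, and 3612 and 3596 in T/HS-LDL. The sham group with ligation was highest, by 0.35 ± 0.11 over T/SS (limma, adjusted p = 0.896). Another bright probe set of the gene differed by 0.33 ± 0.17, and its dimmer ones by -0.22 ± 0.16 and -0.02 ± 0.10. All but the one at -0.22 belong to the class that matches gene families, so the signal of the bright ones is uncertain in origin. Ndufb5 gave 1700 and 1937 in T/SS against 2297 and 2176 in T/SS-LDL, a log2 difference of 0.30 ± 0.12. These 2 genes were above T/SS at an unadjusted p under 0.05 and 0 were below it, where 1.58% and 2.03% of all genes were. The averaged T/SS-LDL sample carried much of the shift: the median of the 57 genes was 0.044 without it, with 20 genes below 0, and 0.26 without T/SS-LDL replicate 2.

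The other probe sets of the same genes were read where there was more than 1, in 29 of the 57. Of 48 probe sets that did not stand for a gene, 39 were below 0 in T/HS against T/SS and 14 were lower at an unadjusted p under 0.05, with 0 higher, where 51.6%, 5.14% and 3.65% of all probe sets were. For T/HS against T/HS-LDL, 36 were below 0, 8 lower and 0 higher, where 45.2%, 4.38% and 1.97% of all probe sets were. In 17 of the 48 both T/HS samples lay below all 6 others and in 1 above them, where 8.19% and 6.39% of the 2270 such probe sets of all genes did. These 17 included 5 of the 13 for accessory subunits, 0 of the 3 for core subunits, 6 of the 13 for complex IV, namely those of Cox4i1, Cox6a1, Cox6b1 and Cox8a, and 2 of the 3 for complex III. Such probe sets measure the same RNA and are no independent samples. In 9 of the 29 genes the probe sets differed in sign between T/HS and T/SS: Atp5if1, Atp5po, Cox4i1, Cox6a2, Cox6c, Cox8a, Ndufb5, Ndufb8 and Ndufv3.

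**Figure D4:**
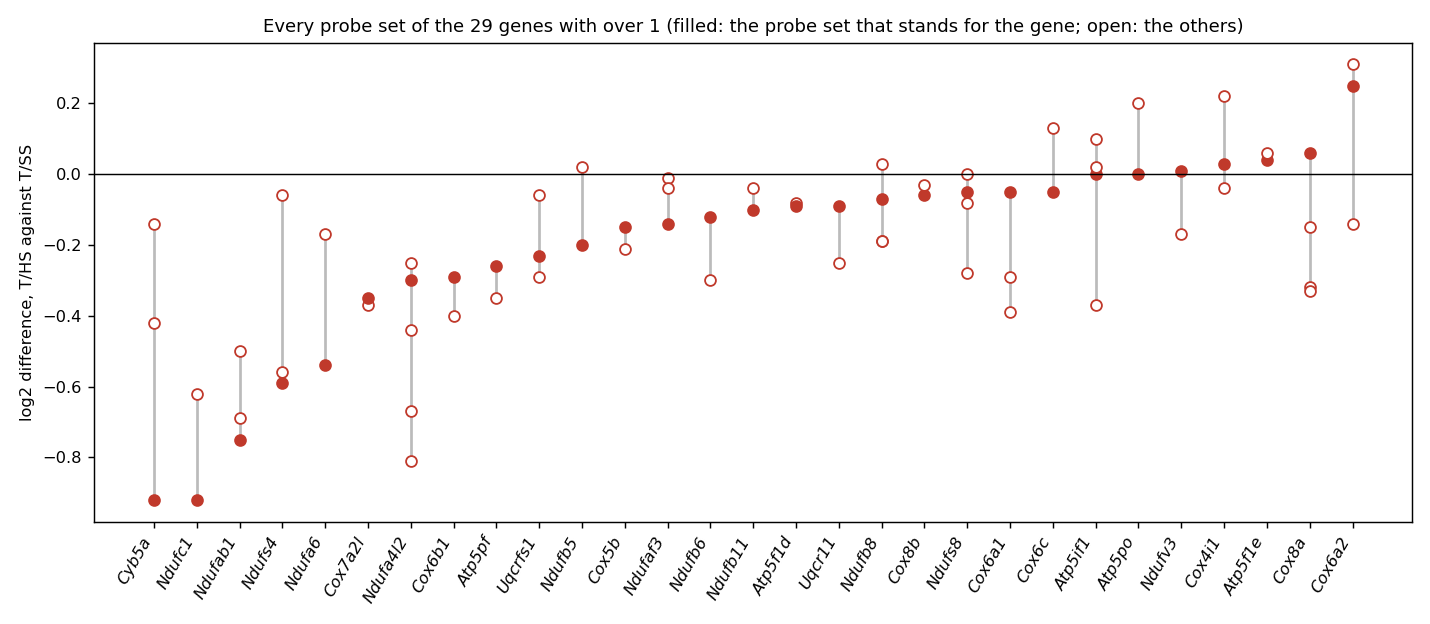
Log2 difference between T/HS and T/SS for every probe set of the 29 genes with more than 1; filled points stand for the gene and open points are its other probe sets. Both Ndufc1 points and all 3 of Ndufab1 lie at or below -0.50, whereas those of Cyb5a spread from -0.92 to -0.14 and those of Cox8a lie on both sides of 0.

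Several subunits were read only by probe sets that also match a relative or pseudogene, so they are not among the 57 and their signal is uncertain in origin. The probe set of Ndufb4, an accessory subunit of complex I, gave 7994 and 9022 in T/SS, 5281 and 6425 in T/HS, 10548 and 9969 in T/SS-LDL, and 8471 and 8553 in T/HS-LDL. T/HS was lowest, by -0.54 ± 0.13 against T/SS and -0.55 ± 0.13 against T/HS-LDL (limma, adjusted p = 0.397 and 0.712). The shared probe sets of Cox7a2 and Ndufs5 differed from T/SS by -0.39 ± 0.16 and -0.35 ± 0.12. That of Cycs, cytochrome c itself, gave 948 and 923 in T/SS, 703 and 1282 in T/HS, 1423 and 1052 in T/SS-LDL, and 859 and 905 in T/HS-LDL. T/HS spanned T/SS and T/HS-LDL, and T/SS lay above T/HS-LDL and below T/SS-LDL. Those of Atp5mc1 and Atp5mc2, which form the rotor ring, differed by 0.11 ± 0.15 and -0.13 ± 0.18. Cox5a, one of the 57 through its own dim probe set at 240 to 308, also had a far brighter shared one at 11715 to 15462. The shared one differed from T/SS by 0.01 ± 0.11 in T/HS and by 0.27 ± 0.11 in T/SS-LDL.

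Likeness was measured by Pearson's r of log2 values over the 8 samples, which share arrays and groups. Nearest to Ndufc1 were Ndufb3 at 0.94, Ndufa6 at 0.93 and Atp5pf at 0.93. Nearest to Cyb5a were Ndufb1 at 0.90, Ndufb3 at 0.85 and Ndufb9 at 0.85.

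Windows of 250 bases before a start were read from RefSeq (GRCr8) for 48 of the 57 genes. The aim was to show what genes that were low together and genes that were not have in common in sequence. For many genes the window did not end at the edge of the annotated gene. Among them were Ndufc1, Ndufab1, Ndufb1, Ndufc2 and Cyb5a, which were low in T/HS. Ndufs7, Ndufs8, Ndufv2, Atp5f1c and Atp5f1d, which were not, were also among them. Those windows were kept in the counts below, and each window shown did end there. Windows of 2 accessory subunits that were low in T/HS and of Uqcrc2, which was not, are shown 5′ to 3′ on the gene's strand. Capitals mark matches, on either strand, to CCGGAAG (the ETS family, to which GABPA belongs) and CCAAT.
Ndufb3, chr9:67623167-67623416, plus strand: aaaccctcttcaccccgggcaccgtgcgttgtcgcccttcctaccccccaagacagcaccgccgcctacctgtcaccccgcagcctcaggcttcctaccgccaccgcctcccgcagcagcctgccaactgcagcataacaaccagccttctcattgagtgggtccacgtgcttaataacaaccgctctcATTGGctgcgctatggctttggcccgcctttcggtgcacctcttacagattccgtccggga
Ndufb10, chr10:14255967-14256216, minus strand: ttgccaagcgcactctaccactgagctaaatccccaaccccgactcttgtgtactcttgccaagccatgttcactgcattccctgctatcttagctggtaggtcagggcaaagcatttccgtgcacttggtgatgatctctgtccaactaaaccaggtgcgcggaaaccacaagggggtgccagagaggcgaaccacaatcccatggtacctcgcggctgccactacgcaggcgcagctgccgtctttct
Uqcrc2, chr1:184598990-184599239, plus strand: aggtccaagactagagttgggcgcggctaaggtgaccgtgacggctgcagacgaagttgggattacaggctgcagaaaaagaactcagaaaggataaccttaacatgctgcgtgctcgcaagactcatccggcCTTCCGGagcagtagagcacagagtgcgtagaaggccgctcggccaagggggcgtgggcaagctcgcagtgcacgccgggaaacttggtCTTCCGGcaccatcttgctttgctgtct
The Ndufb3 window held 1 CCAAT match, the Ndufb10 window no match to any string searched, and the Uqcrc2 window a pair of ETS matches. These windows were picked by hand as examples. Ndufa6, also low in T/HS, held an ETS match, and most genes not lower in T/HS against T/HS-LDL held none.

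Over all 48 windows, CCGGAAG was found in 9, or 18.8%, where 7.27% of 33469 rat promoters of the same length held it. It was in 1 of the 15 genes lower in T/HS against T/HS-LDL at an unadjusted p under 0.05 and in 8 of the other 33. CCAAT was in 18, or 37.5%, where 34.0% of all promoters held it, and GGGCGG, an Sp1 box, in 18 where 30.5% did. The palindromic NRF1 consensus and the YY1 string AAGATGGCG were each in 1 window, where 0.762% and 0.693% of all promoters held them, and the estrogen-related receptor string CAAGGTCA was in 0 where 1.33% did. None of the 6 strings contains another. A match is a match of letters and not a known site.

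Genes of neighbouring mitochondrial pathways were read from lists given by function. At an unadjusted p under 0.05 in limma, 3.63% of all genes were higher and 5.03% lower in T/HS against T/SS. Against T/HS-LDL, 1.96% of all genes were higher and 4.65% lower. These shares stand beside the counts of every list below, and no list was tested against them. For the citric acid cycle and pyruvate entry, 16 of 25 genes were measured, and at an unadjusted p under 0.05 0 were higher and 0 lower in T/HS against T/SS, and 0 higher and 2 lower against T/HS-LDL. The latter were Mpc1, part of the pyruvate carrier, at -0.71 ± 0.25 and Pdhb of pyruvate dehydrogenase at -0.46 ± 0.18. Citrate synthase, Cs, differed from T/SS by 0.03 ± 0.11. For fatty acid oxidation, 18 of 20 were measured, with 0 higher and 3 lower against T/SS and 0 higher and 2 lower against T/HS-LDL. Acadm, the medium-chain acyl-CoA dehydrogenase, was at -0.65 ± 0.22 and -0.81 ± 0.22, and Decr1, a reductase for unsaturated chains, at -0.44 ± 0.13 and -0.40 ± 0.13 (limma, adjusted p from 0.46 to 0.775). Hadha of the trifunctional protein was at -0.03 ± 0.11 against T/SS.

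Among mitochondrial carriers and membrane proteins, 18 of 23 were measured, with 1 higher and 0 lower against T/HS-LDL. Against T/SS, 2 were higher and 0 lower. Tspo, a cholesterol-binding protein of the outer membrane, was at 0.77 ± 0.26 and Ckmt2, the creatine kinase of muscle mitochondria and one of the heart muscle markers above, at 0.55 ± 0.23. The adenine nucleotide carrier Slc25a4 was at -0.16 ± 0.10. Of the antioxidants, 11 of 13 were measured, with 0 higher and 2 lower against T/SS and 0 higher and 1 lower against T/HS-LDL. The lower were catalase, Cat, a peroxisomal enzyme, at -2.42 ± 0.45 and -2.03 ± 0.45 (limma, adjusted p = 0.373 and 0.712) and Txnrd2, the mitochondrial thioredoxin reductase, at -0.33 ± 0.11 against T/SS. Sod2, the superoxide dismutase of the matrix, was at 1.26 ± 0.61 (limma, adjusted p = 0.602).

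Of the assembly and maintenance proteins, 7 of 33 were measured, with 0 higher and 1 lower against T/SS and 0 higher and 1 lower against T/HS-LDL: the chaperone Hspa9 was at -0.50 ± 0.21 against T/SS and Hspd1 at -0.55 ± 0.23 against T/HS-LDL. Of the genes listed for mitochondrial biogenesis and transcription, not all of them regulators, 7 of 20 were measured, with 0 higher and 0 lower in both comparisons. Of the partners of cytochrome b5, 7 of 13 were measured, with 0 higher and 1 lower in each: Cyp51, the sterol demethylase, was at -0.42 ± 0.14 and -0.36 ± 0.14.

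Markers of other cell types also differed between the groups. Of 16 neutrophil markers 8 were measured, and their summed intensity was 21428 and 26970 in T/SS, 38716 and 77620 in T/HS, 44302 and 33460 in T/SS-LDL, and 64308 and 73385 in T/HS-LDL. Each shock sample was above both samples of its own sham group. The sums of T/HS-LDL lay within the range of T/HS. The medians of the accessory subunits were -0.35 and -0.24 in T/HS and -0.02 and 0.18 in T/HS-LDL. The part of neutrophils in these medians was not tested. Of 10 endothelial markers 5 were measured, with sums of 14288 to 15811 in T/SS, 11327 to 13656 in T/HS, 13279 to 15936 in T/SS-LDL and 12055 to 13274 in T/HS-LDL. Of 11 adipose markers 9 were measured, with sums of 30162 and 23147 in T/HS and 30601 to 35563 in the other groups. The averaged T/HS sample was thus close to the lowest sample of the other groups, and only T/HS replicate 2 was well below it. Sums of 10 of 12 skeletal muscle markers lay between 3095 and 3932, with T/HS above T/SS and T/HS-LDL and overlapping T/SS-LDL. Those of 3 of 8 erythroid markers lay between 39060 and 42674, with T/HS overlapping T/SS. Those of 4 of 10 monocyte and macrophage markers lay between 31264 and 40922. In these last, T/HS, at 36880 and 40922, was above T/SS and T/SS-LDL and overlapped T/HS-LDL. The part of adipose, endothelial or recruited cells in these differences was not tested.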

How the data were processed

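RNA of rat lung was hybridised to 12 one-colour Affymetrix GeneChip arrays. Per the submitters' processing notes, the authors made the deposited intensity values with RMA, whose version is not given in the sources used here; they are linear, and log2 was taken with no further scaling. Array controls were left out, which left 8740 probe sets: 7006 with 1 gene symbol in the platform annotation, 308 with several and 1426 with none. Arrays of a group with a robust SD of log2 differences under 0.1 were averaged, which left 8 samples. The 4 groups were fitted together with limma 3.58.1 in R 4.3.3 (lmFit, eBayes; 4 residual and 2.85 prior degrees of freedom, prior SD 0.131), tested on simulated data beforehand. Tests were two-sided, with Benjamini-Hochberg adjustment over the 8740 probe sets and a threshold of 0.05. With nothing to show separate animals beyond the labels' wording, p-values measure the spread between these samples. "Groups apart" means that no value of one group lies within the other. The genes, lists, markers and tests were chosen with earlier results of these data known. Genes were named by rule: per comparison up to 4 in each direction with the smallest p, per complex the 2 with the highest mean and the 1 with the largest range of group means, isoform pairs, genes whose probe sets differ in sign, and of each list up to 3 with the smallest p and the 1 with the highest mean; all other named genes were chosen after their values were seen. Alternatives covered separate arrays, the replicate block, a random block, normalization, the filter on dim probe sets, the prior, the probe set rule and each sample left out.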

Additional observations from a re-analysis of the deposited data

How the results depend on the processing

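The count of the 57 genes past an adjusted p of 0.05 in limma was 0 in every comparison for the 8 samples, and stayed 0 with a random block for the sample, under quantile normalization, median centring, the filter on dim probe sets, the trended prior and each sample left out. With the 12 arrays as separate samples it was 11 for T/HS against T/SS, 12 for T/HS against T/HS-LDL, 1 for T/SS-LDL against T/SS and 13 for shock over both duct states, where 7.18%, 4.5%, 1.29% and 8.99% of all genes were called. With the replicate block over the 12 arrays it was 7, 4 and 12 for the first, second and last of these, where 4.9%, 1.39% and 6.9% of all genes were. The replicate numbers share only a number: deviations of same-numbered arrays correlated over 0.1 in 3 of 18 pairs, with r from -0.166 to 0.189. Both fits count near-identical arrays as independent. The median of the 57 genes kept its sign in the 4 comparisons of 2 groups. Leaving out 1 sample at a time, it ranged from -0.23 to -0.065 for T/HS against T/HS-LDL, from 0.044 to 0.26 for T/SS-LDL against T/SS, and from -0.15 to 0.018 for the interaction, whose sign is thus not settled. "Only the groups compared" applies to no contrast over all 4 groups and was not run there. Signals near background limit Ndufs1 and Cox6c-ps1. Cox4i1 and Cox8a, at mean intensities of 25496 and 25659, were near the highest intensity of the arrays, 29933 to 32489. A second Cox8a probe set as bright, at 25508, differed between T/HS and T/SS by -0.33 ± 0.12. Whether brightness lessened differences in complex IV was not tested. The causes were not tested.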
